A study of Mus musculus with 7 samples.

Results

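The genes Myb, Myc and Mycn were examined with the distal accessible regions around them. A window was set for each gene on GRCm38 (mm10), the gene body in GENCODE M21 plus 100 kb on each side, with the 3′ side of Myc extended to 1.8 Mb so that it took in the distant haematopoietic enhancer cluster. Every peak of the 7 deposited lists that overlapped a window was a member, whatever its height. The windows held 657 of the 647973 peaks of the series, and after overlapping peaks of all libraries were merged they held 159 of 145247 regions, of which 49 lay around Myb, 103 around Myc and 7 around Mycn.

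Myb encodes a transcription factor required in haematopoietic stem and progenitor cells, and it is switched off as lymphoid cells mature. Myc and Mycn encode basic helix-loop-helix proteins that pair with Max, bind E-boxes and drive growth and division. Both Myb and Myc are known for enhancers far from their promoters: those of Myb lie on either side of the gene, partly within the neighbouring gene Ahi1, and those of Myc lie along the long non-coding RNA gene Pvt1 and far beyond it.

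Accessible chromatin was profiled by ATAC-seq in sorted mouse B-cell progenitors, in 7 groups of 1 library each. The 3 WT libraries, one for each of the stages pre-proB, proB and preB, carried Ergfl/fl, in which Erg, an ETS-family transcription factor gene, is floxed and intact, with no Cre allele in the label. The Erg KO library was of pre-proB cells of the genotype Rag1CreT/+;Ergdelta/delta, in which Cre driven from Rag1 had deleted Erg in lymphoid progenitors, so that the Cre allele and the deletion cannot be told apart. The 3 Rescue libraries carried Rag1CreT/+;Ergdelta/delta;IgHVH10tar, the same deletion with a heavy-chain gene that is already rearranged. Their source names give another stage than their titles, so each Rescue stage below is that of the title. With no replicate in any group, no difference below could be tested against the spread between animals, and the intervals given cover counting error only.

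The background pileup, the fragment depth expected at a position without enrichment, was recovered from each list and lay between 3.49 and 4.596. The lowest summit pileup that was called lay between 10 and 12, so a region described as having no peak may still hold fewer fragments than that. Levels are given as the fold of the highest peak of a region over background. Of 6 B-lineage marker genes, a promoter peak was found for 5, 2 and 3 in WT, Erg KO and Rescue pre-proB and for 6 in each of the 4 later libraries. Pax5 and Vpreb1 had none in either Erg-deficient pre-proB library. The summed promoter fold of this list was 70.2 in WT pre-proB, 45.3 and 48.8 in the Erg-deficient pre-proB libraries and 288 to 388 in the later libraries. Lists of 6 markers each for other cell types were also read. The plasmacytoid dendritic list had a promoter peak for 6 of 6 genes in every library and summed to 322 to 390 in the pre-proB libraries and 186 to 303 in the later ones, with Siglech at 101 to 113 against 18.6 to 54.5. The T list summed to 41.9 to 62.7 in the pre-proB libraries and 8.55 to 30.3 in the later ones, with Cd3e and Themis at no peak in any library. The NK and innate lymphoid list summed to 47.5 to 66.7 against 12.5 to 36.1, with no Ncr1 peak in any library. The myeloid list summed to 51.5 to 69.2 against 17.0 to 46.6, with no Elane peak, and the erythroid list to 77.7 to 92.8 against 73.4 to 94.9, with no Gata1 or Hba-a1 peak. Not every gene moved with its list. Tcf4 of the plasmacytoid list was at 59.2 to 62.4 in the pre-proB libraries and higher, at 62.8 to 144, in all later ones, Eomes of the NK list at 4.07 to 6.05 against 8.12 to 15.7, and Csf1r of the myeloid list at 7.37 to 8.94 against 12.9 to 22.5. Of the T list, Lck was highest in WT proB, at 22.9 against 12.2 to 15.9 at pre-proB, and so was Bcl11b, at 7.38 against at most 3.66. In the NK list Tbx21 had peaks in later libraries only, at 4.16 to 5.17. Gzma was at 6.83 and 16.0 in WT and Rescue proB, against at most 4.11 at pre-proB and no peak at preB. Klrb1c made up most of the NK sum at pre-proB, at 35.2 to 49.7, and had at most 5.54 later. The summed level of every list except the erythroid one differed between the pre-proB and the later libraries without overlap, and the part of these markers in the stage differences below was not tested. In bulk libraries, fewer cells of a type and less accessibility per cell cannot be told apart.

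Regions are named by the gene and the distance of the summit from its transcription start site (TSS), in the direction of transcription. Myb (ENSMUSG00000019982, minus strand) spans chr10:21124935-21160984, Myc (ENSMUSG00000022346, plus strand) chr15:61985391-61990374 and Mycn (ENSMUSG00000037169, minus strand) chr12:12936093-12941914. The summits of 6 distal regions that the results turn on are printed with 100 bases on either side, from the GRCm38 plus strand. Myb -72.5 kb (chr10:21233431-21233631) was high in the later libraries, Myb -27.1 kb (chr10:21187940-21188140) and Myc +472.8 kb (chr15:62458057-62458257) were high at pre-proB, Myc +1386.2 kb (chr15:63371474-63371674) was detected only in the later libraries, Myc +1672.8 kb (chr15:63658118-63658318) lies in the distant cluster, and Myc +196.3 kb (chr15:62181560-62181760) had the highest fold of any distal region in a single library, 102 in Rescue preB. Capitals mark a match to a searched pattern, and a match on the opposite strand appears as its reverse complement.
Myb -72.5 kb: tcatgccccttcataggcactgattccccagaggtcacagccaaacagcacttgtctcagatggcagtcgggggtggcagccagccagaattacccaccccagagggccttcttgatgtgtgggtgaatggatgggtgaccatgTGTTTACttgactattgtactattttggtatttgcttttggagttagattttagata
Myb -27.1 kb: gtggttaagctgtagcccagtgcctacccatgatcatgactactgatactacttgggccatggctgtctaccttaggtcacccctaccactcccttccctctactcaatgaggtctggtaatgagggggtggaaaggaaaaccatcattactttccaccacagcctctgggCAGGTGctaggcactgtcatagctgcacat
Myc +472.8 kb: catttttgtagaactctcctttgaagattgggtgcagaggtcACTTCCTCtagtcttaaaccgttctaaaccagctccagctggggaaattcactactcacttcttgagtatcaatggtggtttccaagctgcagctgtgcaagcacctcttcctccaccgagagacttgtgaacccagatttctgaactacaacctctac
Myc +1386.2 kb: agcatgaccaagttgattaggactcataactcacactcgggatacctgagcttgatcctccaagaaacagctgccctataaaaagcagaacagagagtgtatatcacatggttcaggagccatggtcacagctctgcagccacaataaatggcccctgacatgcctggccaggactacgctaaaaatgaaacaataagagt
Myc +1672.8 kb: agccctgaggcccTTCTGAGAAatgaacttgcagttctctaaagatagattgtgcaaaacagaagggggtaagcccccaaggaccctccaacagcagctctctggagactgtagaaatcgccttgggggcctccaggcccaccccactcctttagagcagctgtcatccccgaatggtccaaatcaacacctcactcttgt
Myc +196.3 kb: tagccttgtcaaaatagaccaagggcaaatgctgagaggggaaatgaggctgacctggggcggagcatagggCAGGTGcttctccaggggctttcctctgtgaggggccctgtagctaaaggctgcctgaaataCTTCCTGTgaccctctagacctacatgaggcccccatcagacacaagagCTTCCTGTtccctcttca

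Stretches of 250 bases were read from RefSeq promoter sequences (GRCm38.p6, minus strand). In these, 2 of the 3 members were matched, Myb (chr10:21160985-21161234) and Mycn (chr12:12941837-12942086). The Myb stretch lies directly upstream of the TSS used here. The Mycn stretch crosses the TSS used here, at 12941914, so its last bases lie inside the gene. Both are shown because both promoters were open in all 7 libraries.
Myb promoter: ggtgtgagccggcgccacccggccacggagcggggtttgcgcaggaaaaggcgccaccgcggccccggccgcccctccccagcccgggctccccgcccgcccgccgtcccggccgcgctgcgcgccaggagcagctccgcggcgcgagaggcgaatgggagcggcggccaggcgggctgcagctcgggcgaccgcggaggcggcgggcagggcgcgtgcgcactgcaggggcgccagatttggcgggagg
Mycn promoter: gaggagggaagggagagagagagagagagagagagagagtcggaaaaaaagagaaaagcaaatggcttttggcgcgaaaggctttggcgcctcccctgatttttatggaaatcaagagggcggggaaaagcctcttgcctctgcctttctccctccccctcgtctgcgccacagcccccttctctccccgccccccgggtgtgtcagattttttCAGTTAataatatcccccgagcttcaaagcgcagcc

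The patterns, each searched on both strands, were the ETS letters ACAGGAAG and ACCGGAAG, the PU.1 letters GAGGAAGT, the EBF1 palindrome, the RUNX letters TGTGGTT, the E-protein E-box CAGGTG, the MYC and MAX E-box CACGTG, the MYB letters TAACNG, the GATA letters AGATAAG, the FOXO letters TGTTTAC and the STAT letters TTCNNNGAA. The ETS and PU.1 patterns share the letters GGAAG. Myc +196.3 kb held ACAGGAAG at 2 places, on the minus strand 34 and 83 bases right of the summit, and 1 CAGGTG. Myc +472.8 kb held 1 PU.1 match, 58 bases left of the summit. Myb -72.5 kb held 1 FOXO match, Myb -27.1 kb 1 CAGGTG and Myc +1672.8 kb 1 STAT match. The Mycn stretch held 1 MYB match, in its part inside the gene by the TSS used here. Myc +1386.2 kb and the Myb promoter held none of the patterns.

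The same summit windows of the 159 regions were set against those of all merged regions. ACAGGAAG was found in 7 of 159 regions, 4.403%, against 6.08% of all regions, and ACCGGAAG in 0 of 159 against 0.755%. GAGGAAGT was found in 8.81% against 7.22%, TGTGGTT in 10.7% against 10.8%, CAGGTG in 22.6% against 20.05% and CACGTG in 2.52% against 4.16%. TAACNG was found in 17.0% against 19.7%, AGATAAG in 5.03% against 2.12%, TGTTTAC in 5.66% against 2.64% and TTCNNNGAA in 8.81% against 5.95%. The EBF1 palindrome was in 4 of the 159 regions, 2.52%, against 1.55% of all regions. Among regions with a peak in every later library and no pre-proB library it was in 0 of 18 around these genes, against 6.35% of all such regions. These are counts of letters, not of bound sites.

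The promoters were open in all 7 libraries. The Myb promoter peak reached a fold of 34.5, 35.4 and 45.0 in WT, Erg KO and Rescue pre-proB, 23.8 and 39.0 in WT and Rescue proB and 26.3 and 22.5 in WT and Rescue preB. It was thus higher in the pre-proB libraries and Rescue proB than in the other 3. The position of the summit moved with the level. It lay 1818, 1830, 1806 and 1825 bases inside the gene in WT, Erg KO and Rescue pre-proB and Rescue proB. In WT proB, WT preB and Rescue preB it lay upstream, at positions -97, -145 and -79 from the TSS. A separate peak inside the gene was called in those 3 libraries, at a fold of 16.4, 14.9 and 22.5. The peak at the TSS itself was called apart from the inner one in Rescue pre-proB and Rescue proB, at 22.7 and 30.1. The Myb promoter value therefore compares the inner site of some libraries with the TSS site of others.

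The Myc promoter peak had a fold of 24.0, 24.9 and 28.2 in WT, Erg KO and Rescue pre-proB, 46.2 and 48.6 in WT and Rescue proB and 47.6 and 56.1 in WT and Rescue preB. The 3 pre-proB libraries were all below the 4 later ones. The ratio of WT proB to WT pre-proB, as pileup over background, was 1.91 (95% exact interval 1.53 to 2.39). In fold the ratio was 1.92, and over all genes open in every library the median fold ratio for that pair was 1.001. The Myc peaks were split differently between stages. In the pre-proB libraries a peak upstream of the TSS, at -1853 to -1918, was called on its own, at 31.0 in WT, 36.5 in Erg KO and 34.8 in Rescue, whereas in the later libraries it was joined to the promoter peak, and the WT preB summit lay there, at -1851. With a promoter window of 2500 bp, which takes in that site everywhere, the log2 ratio of WT proB to WT pre-proB fell from 0.94 to 0.57.

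The Mycn promoter was the highest of the 3 in every library, at 50.01, 50.4 and 57.0 in WT, Erg KO and Rescue pre-proB, 54.1 and 65.3 in WT and Rescue proB and 65.8 and 70.8 in WT and Rescue preB. The later libraries were not all above the pre-proB ones, and the ratio of WT proB to WT pre-proB was 1.07 (0.902 to 1.27). The ratio of WT preB to WT proB was 1.27 (1.08 to 1.497). In fold it was 1.22, beside a median fold ratio of 1.11 over genes open in all libraries. The summit lay at -637 to -643 in 6 libraries and 3437 bases inside the gene in Rescue pre-proB.

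None of the 3 promoters was lower in the Erg KO pre-proB library than in WT pre-proB by more than counting error. The ratios of Erg KO to WT were 1.01 (0.821 to 1.25) for Myb, 1.02 (0.796 to 1.32) for Myc and 0.9946 (0.836 to 1.18) for Mycn. The Rescue to WT ratios at pre-proB were 1.28 (1.05 to 1.56), 1.16 (0.906 to 1.47) and 1.12 (0.947 to 1.32). In fold they were 1.31, 1.17 and 1.14, beside a median fold ratio of 1.09 over all open promoters. At proB, the Myb ratio of Rescue to WT was 1.72 (1.36 to 2.18), where the inner site was the higher in Rescue and the TSS site in WT. The other Rescue to WT ratios were 1.103 (0.915 to 1.33) for Myc and 1.27 (1.07 to 1.49) for Mycn at proB, and 0.840 (0.642 to 1.0998), 1.16 (0.968 to 1.40) and 1.06 (0.904 to 1.24) for Myb, Myc and Mycn at preB. In fold, the Myb, Myc and Mycn ratios at proB were 1.64, 1.05 and 1.21, beside a median of 1.083 over all open promoters. At preB they were 0.855, 1.18 and 1.076, beside a median of 1.081.

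**Figure D1:**
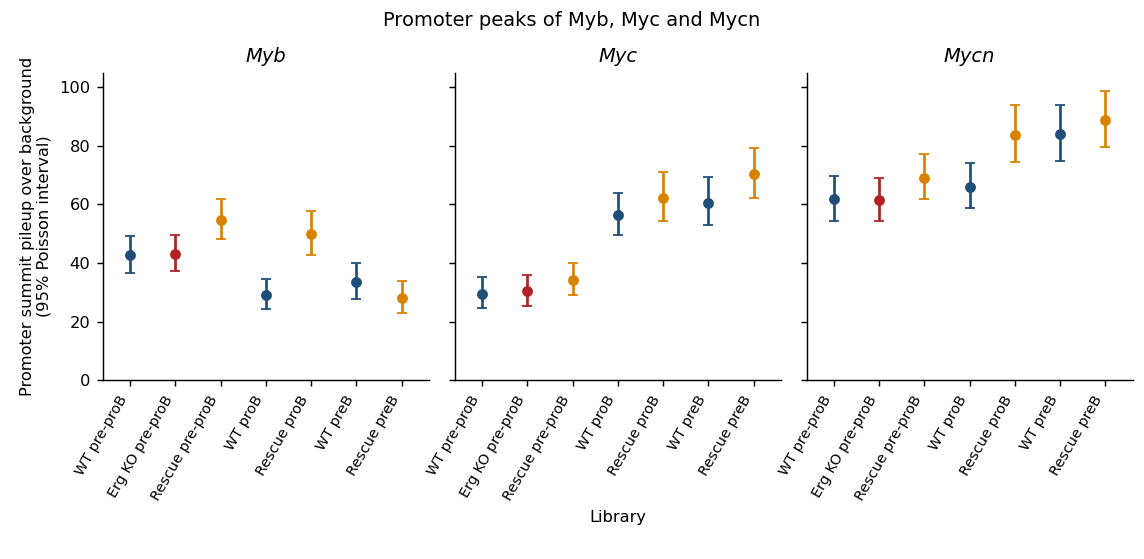
Summit pileup over background of the promoter peak of Myb, Myc and Mycn in each of the 7 libraries, with 95% Poisson intervals for counting error (blue, WT; red, Erg KO; orange, Rescue; 1 library each). Myc is near 30 in the 3 pre-proB libraries and from 56.4 to 70.4 in the later ones, whereas Mycn stays at 61.5 or above in all 7.

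Around Myb, distal regions of opposite behaviour lay close together on both sides of the gene. Myb -31.7 kb, between genes, had a fold of 72.5, 80.1 and 82.0 in WT, Erg KO and Rescue pre-proB, 24.7 and 45.4 in WT and Rescue proB and 43.8 and 47.0 in WT and Rescue preB. Myb +83.4 kb, in an intron of Ahi1, had 72.5, 72.2 and 80.8 at pre-proB, 35.6 and 46.8 at proB and 32.7 and 43.1 at preB. At both regions every pre-proB library was above every later one, and the ratio of WT proB to WT pre-proB was 0.336 (0.273 to 0.410) and 0.485 (0.405 to 0.578).

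Myb -27.1 kb, in introns of the non-coding genes Gm40608 and Gm33619, fell further. It had a fold of 45.0, 44.9 and 49.9 in WT, Erg KO and Rescue pre-proB, 7.1999 and 12.9 in WT and Rescue proB and 6.36 and 7.63 in WT and Rescue preB, and its ratio of WT proB to WT pre-proB was 0.155 (0.107 to 0.219). Its neighbour Myb -26.0 kb, chosen after its values were seen, went the other way, with 11.6, 7.33 and 7.51 at pre-proB and 22.1 to 27.2 in the later libraries. The summits of these neighbours are about 1 kb apart.

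Other regions gained accessibility with stage. Myb -72.5 kb, in an intron of the non-coding gene Gm33728, had a fold of 5.62 in WT pre-proB and no peak in Erg KO or Rescue pre-proB, then 42.5 and 32.1 in WT and Rescue proB and 36.2 and 35.5 in WT and Rescue preB. The ratio of WT proB to WT pre-proB was 7.70 (5.19 to 11.8). Myb +70.5 kb, between Myb and Ahi1, had 4.85 in WT pre-proB, no peak in Erg KO or Rescue pre-proB, 24.9 and 14.9 at proB and 23.2 and 20.6 at preB. Both regions were thus weakly open in the WT pre-proB library alone among the pre-proB libraries. Myb -65.5 kb, chosen after its values were seen, had 7.95 and 3.40 in WT and Rescue pre-proB and no Erg KO peak, against 25.8 to 33.0 later. Its summit pileup was 40 fragments in WT pre-proB, against 28 at Myb -72.5 kb and 24 at Myb +70.5 kb, while the lowest called pileup in Erg KO and Rescue pre-proB was 12.

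With a peak in all 4 later libraries and no pre-proB library, Myb +80.8 kb, at an Ahi1 exon, had folds of 11.6 and 14.0 at proB and 23.0 and 18.6 at preB in WT and Rescue. Myb +48.1 kb, between genes, had 12.9 and 15.6 at proB and 17.5 and 18.2 at preB, and Myb -67.8 kb had 5.72 and 7.57 at proB and 14.5 and 11.1 at preB. The regions with a peak in all 3 pre-proB libraries and no later one were weaker. Myb +93.6 kb was at 6.01, 4.58 and 4.83 in WT, Erg KO and Rescue pre-proB, Myb -37.4 kb at 5.43, 6.23 and 5.36, and Myb -40.0 kb at 4.07, 4.03 and 6.25. Myb -31.7 kb, Myb +83.4 kb and Myb -27.1 kb, by contrast, kept a peak in all 7 libraries.

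Myb -74.4 kb lies next to Myb -72.5 kb and was open throughout. It had a fold of 43.2, 30.8 and 34.7 in WT, Erg KO and Rescue pre-proB, then 45.2 and 37.6 in WT and Rescue proB and 51.7 and 47.5 in WT and Rescue preB. Both Erg-deficient pre-proB libraries were the lowest, with a ratio of Erg KO to WT pre-proB of 0.702 (0.571 to 0.862) and of Rescue to WT of 0.787 (0.645 to 0.958). At the strong pre-proB sites the same ratio was 1.09 (0.948 to 1.26) for Myb -31.7 kb, 0.983 (0.851 to 1.14) for Myb +83.4 kb and 0.9854 (0.820 to 1.18) for Myb -27.1 kb.

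**Figure D2:**
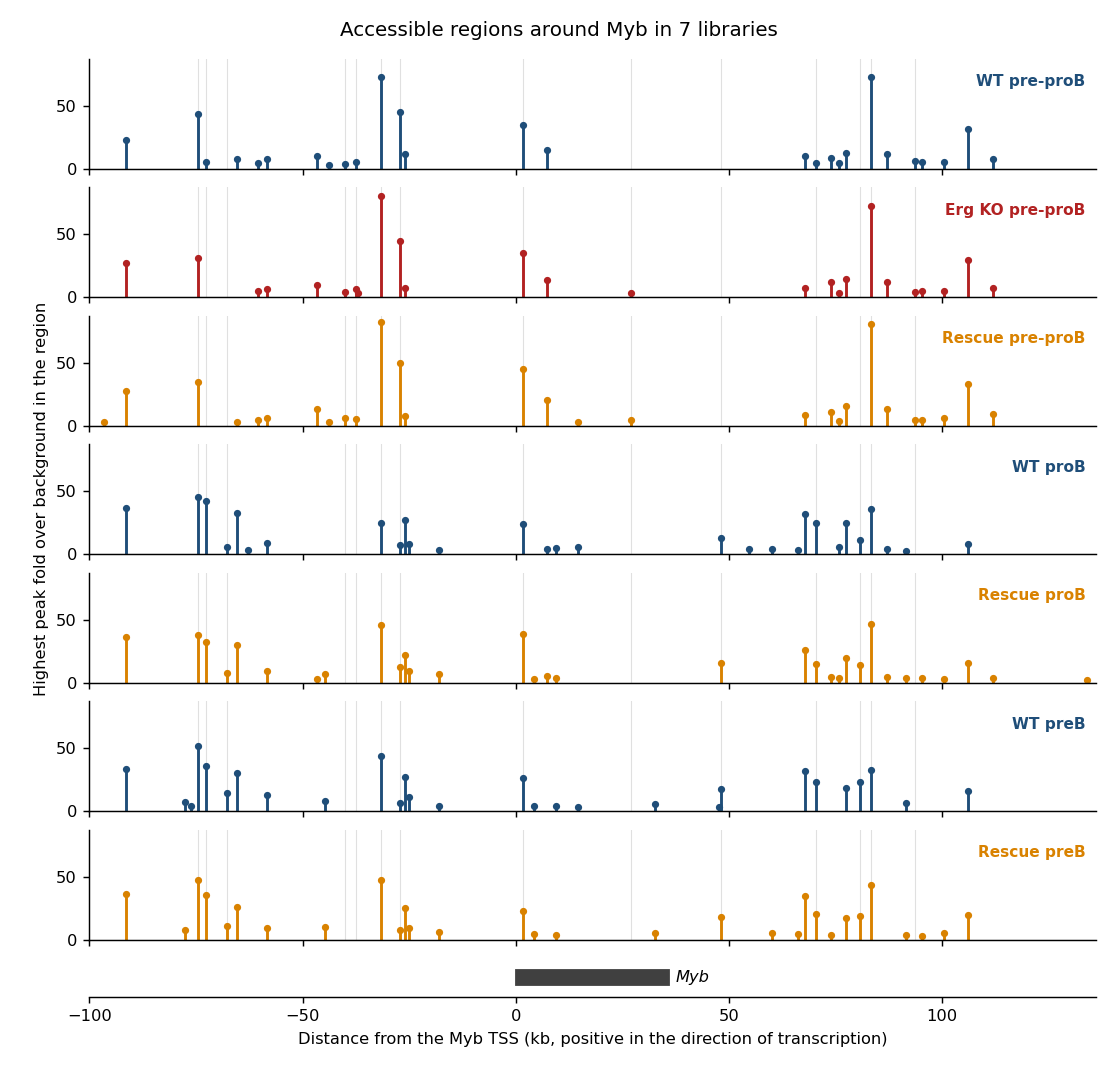
Highest peak fold over background of every region in the Myb window (y axis) against the distance of the region from the Myb TSS in kb (x axis), 1 row per library, with the Myb gene as a bar and grey lines at the regions named by rule. The tall lines at Myb -31.7 kb and +83.4 kb reach 72.2 to 82.0 in the pre-proB rows and 24.7 to 47.0 in the later rows, while Myb -72.5 kb rises from 5.62 or no peak to between 32.1 and 42.5.

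Around Myc, the regions within 400 kb of the gene lay largely in Pvt1. Myc +196.3 kb, in a Pvt1 intron, had a fold of 49.2, 54.1 and 60.4 in WT, Erg KO and Rescue pre-proB, 61.8 and 52.3 in WT and Rescue proB and 80.7 and 102 in WT and Rescue preB, so that both preB libraries were the highest. Myc +184.3 kb had 19.0, 14.7 and 17.5 at pre-proB, 52.4 and 35.0 at proB and 69.3 and 60.04 at preB, with every pre-proB library below every later one and a ratio of WT proB to WT pre-proB of 2.75 (2.17 to 3.496). Myc +186.5 kb had no peak in any pre-proB library, 18.6 and 16.5 at proB and 37.9 and 44.4 at preB, and the ratio of WT preB to WT proB was 2.13 (1.66 to 2.76). The Pvt1 promoter region, Myc +52.5 kb, had 12.2, 15.6 and 13.6 at pre-proB, 17.5 and 19.6 at proB and 37.5 and 38.2 at preB.

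Regions high at pre-proB were interspersed with these. Myc +472.8 kb, between genes and past Pvt1, had a fold of 61.8, 62.1 and 67.4 in WT, Erg KO and Rescue pre-proB, no peak in WT proB, 14.5 in Rescue proB and 5.48 and 6.19 in WT and Rescue preB. Myc +227.0 kb had 43.4, 45.4 and 47.5 at pre-proB, 5.35 and 10.9 at proB and 4.38 and 7.84 at preB in WT and Rescue. Myc +86.2 kb had 36.4, 39.8 and 40.03 at pre-proB, no peak in WT proB, 7.80 in Rescue proB and no peak in either preB library. The last 2 lie in Pvt1 introns and were chosen after their values were seen. At all 3, Rescue proB was the highest of the later libraries. The ratio of Erg KO to WT pre-proB at Myc +472.8 kb was 0.992 (0.848 to 1.16).

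Some further regions, chosen after their values were seen, did not share one course. Myc +72.3 kb had a fold of 35.9, 40.9 and 48.1 in WT, Erg KO and Rescue pre-proB, 9.415 and 17.4 at proB and 27.4 and 27.9 at preB, lowest at proB in both genotypes. Myc +637.1 kb, in an intron of the non-coding gene Gm41333, had 31.4, 34.6 and 31.8 at pre-proB, 4.06 and 11.6 at proB and 12.1 and 12.6 at preB. Myc +366.1 kb had 12.6, 12.6 and 13.2 at pre-proB, 13.1 and 16.0 at proB and 36.8 and 33.8 at preB, with both preB libraries above all others. Myc +121.4 kb had 12.8, 12.5 and 13.2 at pre-proB, 24.7 and 31.0 at proB and 43.4 and 48.9 at preB, and each stage stood above the one before it. Of the regions with a peak in every pre-proB library and no later one, the 3 highest were weak. Myc +17.3 kb was at 6.59, 8.06 and 9.29 in WT, Erg KO and Rescue, Myc +156.7 kb at 5.43, 7.70 and 8.76 and Myc +1555.0 kb at 3.68, 3.66 and 6.25.

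A segment from 1100 to 1600 kb past the gene, whose bounds the naming rule did not set, held 13 regions. Of these, 1, 2 and 1 had a peak in WT, Erg KO and Rescue pre-proB. In WT proB and preB and in Rescue proB and preB the counts were 10, 8, 8 and 8. The adjoining segment from 400 to 1100 kb was not empty at pre-proB. It had a peak at 9, 12 and 11 of 19 regions in WT, Erg KO and Rescue pre-proB. In the later libraries, in the same order as above, it had 8, 11, 13 and 14. Of all merged regions, 62.4%, 67.4% and 69.8% had a peak in those pre-proB libraries and 60.2%, 49.5%, 59.1% and 55.1% in the later ones. Myc +1386.2 kb, in an intron of the non-coding gene Gm41335, stood out by height among the 13 regions from 1100 to 1600 kb. It had no peak in any pre-proB library, a fold of 36.7 and 42.8 in WT and Rescue proB and 87.0 and 90.2 in WT and Rescue preB. The ratio of WT preB to WT proB was 2.48 (2.09 to 2.96), and those of Rescue to WT were 1.22 (0.996 to 1.497) at proB and 1.02 (0.888 to 1.17) at preB. Myc +107.0 kb, the other region of this kind named by rule besides Myc +186.5 kb, had 8.68 and 4.90 at proB and 25.0 and 18.2 at preB.

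**Figure D3:**
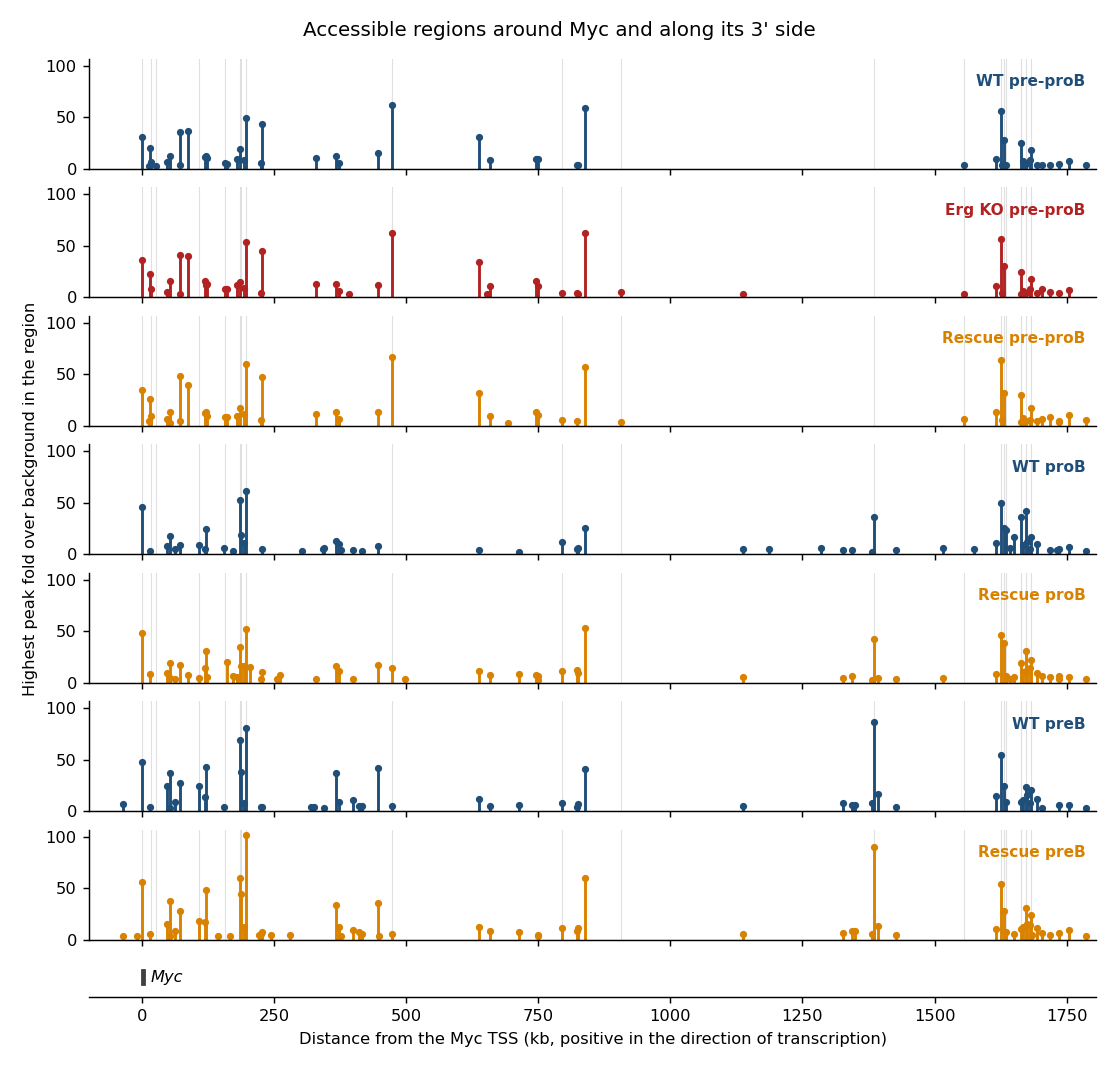
Highest peak fold over background of every region in the Myc window (y axis) against the distance from the Myc TSS in kb (x axis), 1 row per library, with grey lines at the regions named by rule. The pre-proB rows are nearly empty between 1100 and 1600 kb, bounds that the naming rule did not set. There 1 or 2 of 13 regions have a peak (62.4% to 69.8% of all merged regions do). The later rows carry 8 to 10 (49.5% to 60.2% of all), with Myc +1386.2 kb at 36.7 to 90.2.

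The distant cluster, 1600 to 1800 kb past the gene, was occupied at every stage. Of its 23 regions, a peak was found in 16, 15 and 17 in WT, Erg KO and Rescue pre-proB, 18 and 19 in WT and Rescue proB and 15 and 18 in WT and Rescue preB, and 11 were shared by all libraries. Over all merged regions, 62.4% to 69.8% had a peak in a pre-proB library and 49.5% to 60.2% in a later one. The number of the 23 with a fold of 10 or more was 4, 5 and 6 in the pre-proB libraries and 8 to 10 in the later ones, beside 29.5% to 32.4% and 23.5% to 25.4% of all merged regions. Its tallest region, Myc +1626.0 kb, had 56.6, 56.6 and 63.8 at pre-proB, 49.8 and 47.0 at proB and 55.0 and 54.3 at preB, a narrow range across both stage and genotype. Myc +1631.6 kb ranged from 24.5 to 38.5 and Myc +1682.4 kb from 16.6 to 24.1, with no order by stage.

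Other sites in the cluster changed with stage. Myc +1672.8 kb had 4.46, 4.58 and 4.47 in WT, Erg KO and Rescue pre-proB, 42.5 and 31.2 in WT and Rescue proB and 24.1 and 31.2 in WT and Rescue preB, and the ratio of WT proB to WT pre-proB was 9.80 (6.32 to 15.9). Myc +1662.9 kb had 25.6, 24.7 and 29.7 at pre-proB, 36.2 and 18.9 at proB and 9.42 and 10.9 at preB, so the preB libraries were lowest. Myc +1634.8 kb had 3.49 in WT pre-proB, no peak in either Erg-deficient pre-proB library, 23.6 and 6.68 at proB and 9.21 and 7.43 at preB. Rescue proB was there below WT proB, with a ratio of 0.289 (0.186 to 0.435).

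**Figure D4:**
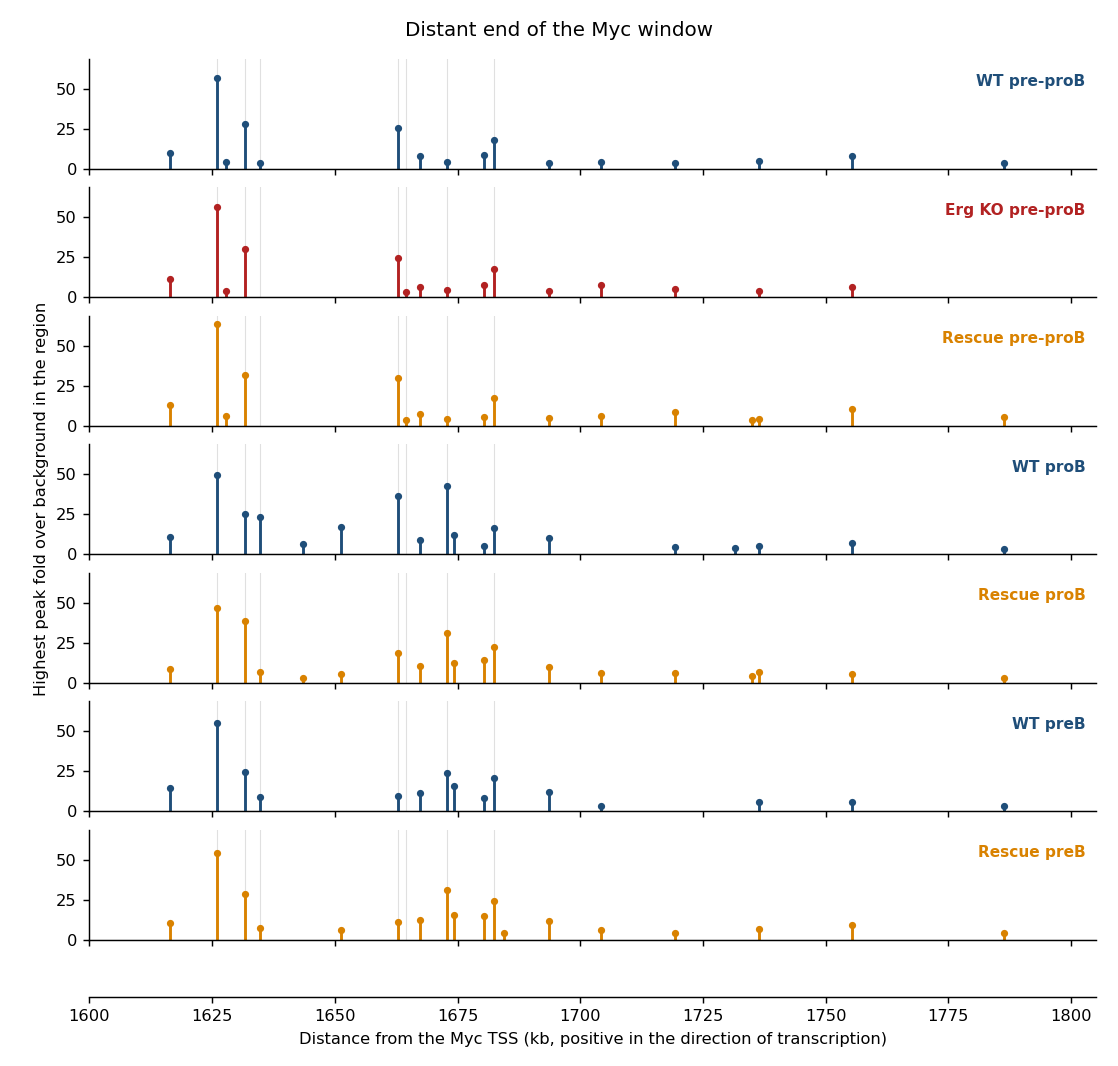
The distant end of the Myc window, from 1600 kb past the TSS, as the highest peak fold over background of each region (y axis) against distance in kb (x axis), 1 row per library. Myc +1626.0 kb stays between 47.0 and 63.8 in all rows, whereas Myc +1672.8 kb is at 4.46 to 4.58 in the pre-proB rows and 24.1 to 42.5 in the later rows.

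The Mycn window was sparse, with 2 to 5 peaks per library. Mycn +64.2 kb, between genes, had a fold of 25.2, 27.1 and 35.4 in WT, Erg KO and Rescue pre-proB, 9.78 and 23.6 in WT and Rescue proB and 13.4 and 40.8 in WT and Rescue preB. The Rescue library was the higher at each stage, with ratios of Rescue to WT of 1.38 (1.101 to 1.74), 2.56 (1.82 to 3.64) and 3.04 (2.27 to 4.13). Mycn +8.8 kb had 12.02, 17.2 and 14.3 at pre-proB, 3.79 in Rescue proB and no peak in the other later libraries. Mycn +94.9 kb was found in WT alone, at 13.5 in proB and 3.29 in preB, and Mycn +45.9 kb in WT proB alone, at 6.28. Mycn +68.3 kb had 4.07, 5.13 and 3.75 in WT, Erg KO and Rescue pre-proB and no later peak.

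**Figure D5:**
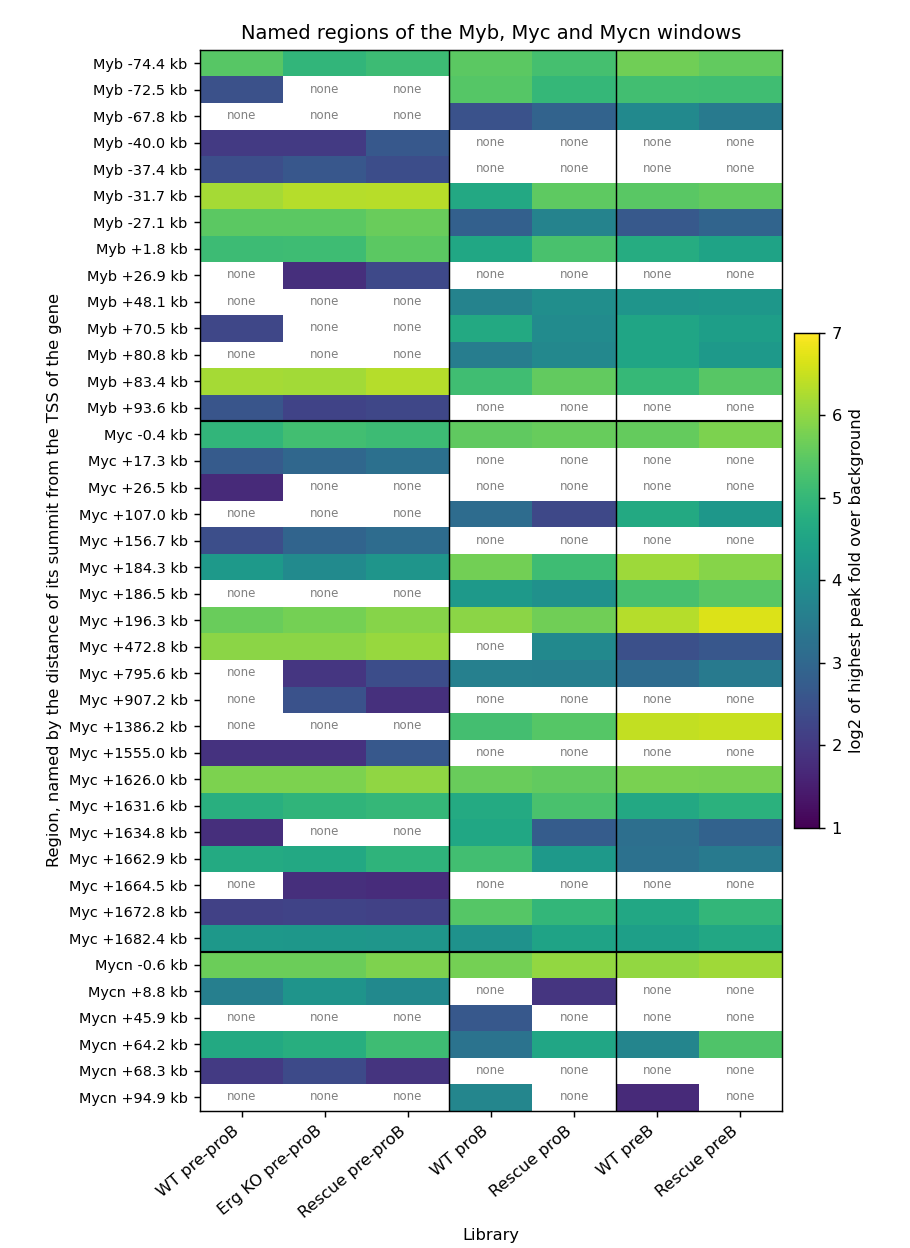
log2 of the highest peak fold over background (colour) of the regions named by rule (rows, ordered by distance from the TSS within each gene) in the 7 libraries (columns, grouped by stage), with "none" where a library has no peak. The 3 pre-proB columns resemble each other, with exceptions in both directions. Among these columns, Myb -72.5 kb, Myb +70.5 kb, Myc +1634.8 kb and Myc +26.5 kb carry a weak peak in WT only. In the same columns, Myb +26.9 kb, Myc +795.6 kb, Myc +907.2 kb and Myc +1664.5 kb carry one in Erg KO and Rescue only.

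Counted over the 159 regions, 41 (25.8%, 95% Wilson interval 19.6 to 33.1) had a peak in all 7 libraries, beside 32.0% of all merged regions. A peak in all 4 later libraries and no pre-proB library was found at 18 regions (11.3%, 7.28 to 17.2), 7 around Myb and 11 around Myc, beside 5.19% of all regions. The reverse, a peak in all 3 pre-proB libraries and no later one, was found at 10 regions (6.29%, 3.45 to 11.2), 4 around Myb, 5 around Myc and 1 around Mycn, beside 11.5%. These intervals treat regions as independent, which neighbouring regions may not be.

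From WT pre-proB to WT proB, 31 of 84 peaks (36.9%, 27.4 to 47.6) were lost, beside 34.1% of the whole list, and 42 of 96 WT proB peaks (43.8%, 34.3 to 53.7) were gained, beside 31.9%. The gains were 12 of 32 around Myb, 27 of 59 around Myc and 3 of 5 around Mycn. Of the WT proB peaks 21 of 96 had no WT preB peak (21.9%, beside 26.7%), and 18 of 96 WT preB peaks had no WT proB peak (18.8%, 12.2 to 27.7, beside 10.7%). Among the 47 Myc regions open in both WT proB and WT preB, 13 were over 2-fold higher in preB and 2 over 2-fold lower, beside 5.18% and 8.53% of all shared regions.

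For the question of whether Erg is needed for accessibility at these genes, the pre-proB libraries were compared. Of 84 WT pre-proB peaks, 8 (9.52%, 4.91 to 17.7) had no Erg KO pre-proB peak, 4 of 28 around Myb, 4 of 52 around Myc and 0 of 4 around Mycn, beside 6.88% of the list. In the other direction 8 of 83 Erg KO peaks had no WT peak (9.64%, beside 13.6%). Against Rescue pre-proB, 5 of 84 WT peaks were missing (5.95%, beside 5.88%) and 9 of 88 Rescue peaks were additional (10.2%, beside 15.6%). All these shares had intervals that took in the background.

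A peak in WT pre-proB and in neither Erg-deficient pre-proB library was found at 4 regions (2.52%, 0.983 to 6.29, beside 2.36%). They were Myb -72.5 kb, Myb +70.5 kb, Myc +1634.8 kb and Myc +26.5 kb, of which the last was at a fold of 3.30 in WT pre-proB and had no peak elsewhere. The first 3 of these 4 had a higher fold in all 4 later libraries than in WT pre-proB, with Myc +1634.8 kb at 6.68 and 7.43 in the later Rescue libraries against 3.49. Beside them stand the B-lineage marker promoters, of which Cd79a was at 11.4, 0 and 3.57 in WT, Erg KO and Rescue pre-proB and Pax5 at 3.68, 0 and 0, where 0 marks no peak. Whether these Myb and Myc sites differ within a cell type or with the mix of cells sorted was not tested. The reverse, a peak in both Erg-deficient libraries and not in WT, was also found at 4 regions (2.52%, beside 5.65%). In Erg KO and Rescue, Myb +26.9 kb was at 3.48 and 5.004 and Myc +795.6 kb at 3.85 and 5.36. Myc +907.2 kb was at 5.68 and 3.57 and Myc +1664.5 kb at 3.48 and 3.40. Of this reverse set, Myc +795.6 kb was higher in all 4 later libraries, at 8.55 to 12.2, and the other regions had no later peak.

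Where both libraries had a peak, levels in WT and Erg KO pre-proB were close. Over 23 Myb, 46 Myc and 4 Mycn regions the median log2 ratio of Erg KO to WT was -0.01, 0.12 and 0.22, beside 0.06 over all shared regions, and none of these regions differed over 2-fold. Of all shared regions 0.280% were over 2-fold higher and 0.270% lower, so a count of 0 says little about these genes. The lowest ratio was -0.67 around Myb and the highest 0.92 around Myc.

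The peaks gained from WT pre-proB to WT proB were looked up in the other libraries. They were chosen for having no WT pre-proB peak, so few peaks in the other pre-proB libraries follow from the choice. Of the 42, 2 (4.76%, 1.32 to 15.8) had an Erg KO pre-proB peak, beside 11.9% of all gained peaks, and 2 had a Rescue pre-proB peak, beside 13.8%. In Rescue proB 24 of the 42 (57.1%, 42.2 to 70.9) had a peak, beside 49.2%, with 7 of 12 around Myb, 17 of 27 around Myc and 0 of 3 around Mycn. Of the 31 lost peaks, 17 (54.8%, 37.8 to 70.8) still had a peak in Rescue proB, beside 33.7%, and 8 (25.8%, 13.7 to 43.2) in Rescue preB, beside 16.0%. Myc +472.8 kb and Myc +86.2 kb were among the sites lost in WT proB and still open in Rescue proB, at the values given above.

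At matched later stages, 19 of 96 WT proB peaks had no Rescue proB peak (19.8%, 13.1 to 28.9, beside 20.6%), and 30 of 107 Rescue proB peaks had no WT proB peak (28.0%, 20.4 to 37.2, beside 19.8%). At preB, 8 of 96 WT peaks had no Rescue peak (8.33%, beside 8.02%) and 18 of 103 Rescue peaks had no WT peak (17.5%, beside 17.9%). Read by source name instead of title, the Rescue pre-proB label passes to the library titled preB, and 26 of 84 WT pre-proB peaks then had no Rescue counterpart. The share of the whole list under that reading is not given, so this count cannot be set beside its background. For scale, 34.1% of all WT pre-proB peaks had no WT proB peak.

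The partners of Myc and Myb were open throughout. All 11 genes of a Myc, Max and Mxd network list, all 9 genes for Myc cofactors and turnover and all 6 genes for the Myb family and its cofactors had a promoter peak in all 7 libraries, as did 58.7% of all protein-coding genes. The median log2 ratio of Erg KO to WT pre-proB was 0.02, 0.07 and 0.04 for these lists, beside 0.02 over all genes open in both, with no gene over 2-fold in either direction, beside 0.189% of all genes higher and 0.123% lower. From WT pre-proB to WT proB the medians were -0.05, -0.08 and -0.15, beside -0.000363 over all genes, and 1 of the 26 genes was over 2-fold higher and none lower, beside 6.59% and 3.78% of all genes, which singles out nothing in these lists. The 1 gene was Mlxipl, which encodes a carbohydrate-responsive partner of Mlx, at 13.8, 13.9 and 15.01 in WT, Erg KO and Rescue pre-proB and 35.6 to 50.5 in the later libraries. Mnt, a Max partner that opposes Myc, was at 83.2, 95.3 and 99.2 at pre-proB and 46.0 to 54.6 later, short of 2-fold for WT.

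Among 15100 protein-coding genes, those whose promoter fold followed each member most closely over the 7 libraries were ranked by Pearson's r of the log2 fold, as a description over 7 points that share depth and stage. For Myb these were Fcf1 and Arel1, which share a promoter region, at r = 0.989, and Tap2 at r = 0.983. For Myc they were Pm20d2, Dnaic2 and Tmem185b, each at r = 0.997 or above, with Pm20d2 at 11.4, 12.3 and 14.8 at pre-proB and 33.0 to 41.1 later. For Mycn they were Ckap2l, Ccdc88a and Gatad1, each at r = 0.997. Dnaic2 had no promoter peak in WT or Erg KO pre-proB and was set to the lowest called fold there. The Myb values that were followed mix the inner site of some libraries with the TSS site of others, as described above.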

How the data were processed

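ATAC-seq was performed by the authors on nuclei of sorted cells. The labels name Tn5 and the methods sonication. Reads were aligned by the authors to mm10 with Bowtie2 and peaks called with MACS2, and the submitters' processing notes also name CASAVA 1.8.2 and Picard; for the others the version is not given in the sources used. In each of the 7 lists the authors deposited a score (10 times the −log10 q), a fold (a ratio of summit pileup to background, each with 1 added), a −log10 p and −log10 q, and a summit offset in bases, which is not a normalized signal. Read totals were not used here. For 100% of peaks the deposited fold was a whole number of steps (tolerance 0.05), which gave the background and summit pileups.

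Groups followed the titles. A region was shared if 1 bp overlapped, and overlapping peaks of all libraries were merged. A promoter peak overlapped 1000 bp on either side of a GENCODE M21 TSS. Shares carry Wilson intervals and pileups and their ratios exact intervals, at 95%, for counting error only; fragments without molecular identifiers are not independent. No test across features was run. Named regions were, by rule, in each window, the member's promoter, the 5 highest distal regions, and the 3 highest with a peak in all pre-proB and no later library, in all later and no pre-proB library, in WT pre-proB but neither Erg-deficient one, and the reverse, with the 5 highest of the distant cluster, protein-coding neighbours, Pvt1 and the 3 genes most like each member. The members and lists were chosen with earlier results of these data known. Python 3.11.15 with numpy 2.4.6, pandas 2.3.3 and scipy 1.17.1 was used, and the overlap and pattern code was tested on simulated data. Alternatives were lists of 76465 and 38232 peaks by score, a −log10 q of at least 10, overlap of 50% of both peaks, flanks of 50 kb, a promoter window of 2500 bp, 2 other scales and the Rescue stage by source name. The value of 1 marker gene is not reported here.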

Additional observations from a re-analysis of the deposited data

Results flagged for a closer look

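At 5 regions WT and Rescue moved in opposite directions between the same stages, each by at least 1.5-fold, with a region without a peak set to the lowest called fold. The difference was not tested, since each value compares 1 library with 1 library. From pre-proB to proB, Myc +160.0 kb changed by 1.24 on the log2 scale in Rescue and by -1.07 in WT, and Myc +1680.3 kb by 1.34 in Rescue and -0.75 in WT. From proB to preB, Myb +60.1 kb changed by 1.07 in Rescue and -0.69 in WT, Myc +375.5 kb by 0.75 and -0.69, and Myc +472.8 kb by -1.23 and 1.19. Only Myc +1680.3 kb had a peak in every library compared. At Myb +60.1 kb and Myc +375.5 kb, WT preB and Rescue proB had no peak, and at Myc +472.8 kb WT proB had none, so these changes rest on the lowest called fold. At Myc +160.0 kb the fold was 5.04 and 8.58 in WT and Rescue pre-proB and 20.3 in Rescue proB, with no peak in WT proB or either preB library. The Rescue changes rest on the stages of the titles, which the source names contradict.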

How the results depend on the processing

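Under lists cut to 38232 peaks by score, counts of unshared peaks were 13 for WT pre-proB against WT proB and 19 for the reverse, 4 for WT proB against WT preB, 3 and 4 for WT and Erg KO pre-proB, 3 and 1 for WT and Rescue pre-proB, 4 and 15 for WT and Rescue proB, and 5 and 5 for WT and Rescue preB. In these shorter lists WT pre-proB held 10, 19 and 3 peaks around Myb, Myc and Mycn, against 28, 52 and 4 in the full list. Shares over all peaks are not given for the alternative settings of this section. The counts here therefore do not show whether a result moved relative to its background. With lists of 76465 peaks, Erg KO against WT pre-proB gave 5. At a −log10 q of at least 10, WT and Erg KO pre-proB gave 5 and 5, Rescue against WT proB 19 and WT against Rescue preB 2. With 50% of both peaks required, WT preB against WT proB gave 31, WT against Erg KO pre-proB 13, and WT and Rescue pre-proB 12 and 16. By source name, WT and Rescue gave 26 and 44 at pre-proB, 44 for WT at proB, and 15 and 29 at preB. Promoter log2 ratios of Rescue to WT pre-proB then became -0.62 for Myb (0.38 by title), 1.22 for Myc and 0.50 for Mycn, with -0.71 for Myc at proB (0.07 by title) and 0.57 for Myb at preB (-0.23 by title). The sign turned for these last 2, for Myb at pre-proB and for Mycn at preB, from 0.11 to -0.01. A promoter window of 2500 bp gave 0.57 for Myc in WT proB over pre-proB. The cause was not tested. Flanks of 50 kb, pileup over background and scaling to the median promoter moved no count by over 1.5 times and no ratio beyond its interval. No paired analysis was possible because each group held 1 library, and no replicate could be left out. Depth limits regions under 10 to 12 fragments.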
